A study of Caenorhabditis elegans with 8 samples.

Results

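The genes described here are 42 subunits of the oxidative phosphorylation machinery of Caenorhabditis elegans, out of 20392 genes in the count table. They were taken from a list of gene symbols, drawn up with earlier results of these data known: 12 are encoded by the mitochondrial genome and 30 by the nuclear genome. All 42 passed the filter on low counts, as did 14355 genes in all, so none of them is missing from the tests. Positions are those of the WBcel235 annotation, matched by gene ID.

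Oxidative phosphorylation passes electrons from NADH and succinate along complexes I, II, III and IV of the mitochondrial inner membrane, and complex V uses the resulting proton gradient to make ATP. Complex II is made wholly from nuclear genes, whereas complexes I, III, IV and V combine nuclear subunits with subunits translated inside the mitochondrion. The mitochondrial genes are transcribed as long precursors that are cut into separate RNAs, by an RNA polymerase that is itself a nuclear gene product. In worms, larvae depend on this machinery for growth, and the body wall muscle is one of the tissues richest in mitochondria.

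RNA was measured in first-stage (L1) larvae of 4 genotypes with 2 libraries each, named a and b. The wild-type strain was N2 Bristol, and the cec-4 mutant was strain GW828, cec-4 (ok3124) IV, which lacks the chromodomain protein that anchors heterochromatin at the nuclear envelope. The lamin Y59C strain, GW653, carried the transgene baf-1p::GFP-lmn-1 Y59C with the marker unc-119(+) in an unc-119(ed-3) background, so a GFP-tagged mutant lamin was driven by the baf-1 promoter in addition to the worm's own lamin gene. The double mutant, GW1468, carried both that transgene in its unc-119(ed-3) background and cec-4(ok3124). Eggs of every group hatched for 16 h in M9 buffer, larvae were fed again for 2.5 h, and animals without the green balancer were sorted. A strain with unmutated GFP-lamin was not analysed here, and the mutation in lamin, the extra lamin copy, the rescue marker and the unc-119 allele cannot be told apart. The labels do not say whether libraries a and b came from separate cultures, so p-values measure the spread between these libraries, which may be technical. These are whole larvae, and fewer cells of a type, fewer mitochondria per cell and less RNA per mitochondrion cannot be told apart.

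Library totals ran from 30924676 to 57069281 counts, the largest being wild-type b. The genotype genes followed the labels: cec-4 stood at 12.3 to 14.5 CPM (counts per 1000000 of the effective library size) in libraries with the gene intact and at 4.35 to 5.04 CPM in those with the ok3124 allele. The rescue marker unc-119 stood at 22.4 to 24.3 CPM without the transgene and at 41.5 to 43.3 CPM with it, and lmn-1 at 429 to 473 CPM without and 488 to 523 CPM with it. Library cec-4 mutant b stood apart from its partner in the mitochondrial genes, and several results that rest on it are given with and without it.

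The nuclear subunits stayed close to their wild-type level in all 3 mutant genotypes, and 0 of the 30 were called changed in any of the 8 comparisons (edgeR quasi-likelihood test, adjusted p under 0.05 over all genes tested). The mitochondrially encoded subunits varied more, between genotypes and between the libraries of 1 genotype. Of the 12, only nduo-2, a complex I subunit, was called, and in 1 comparison, the one that averages the transgene effect over both cec-4 states, where it fell by 0.33 ± 0.06 on the log2 scale (SE; adjusted p = 0.0252).

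The count of called members was 0 of 42 in lamin Y59C against wild-type, where 0.509% of all genes tested were called. It was likewise 0 of 42 between the cec-4 mutant and wild-type (0.0209% of all genes) and 0 of 42 in the double mutant against wild-type (2.21%). The double mutant gave 0 of 42 against lamin Y59C (0.676%) and 0 of 42 against the cec-4 mutant (0.773%). The interaction (the difference that the transgene makes in cec-4 mutants less that in cec-4-positive worms) gave 0 of 42 (0.0348%), the averaged transgene effect 1 of 42 (1.96%) and the averaged effect of cec-4 loss 0 of 42 (0.118%). At these backgrounds, about 1 call or fewer among 42 genes is what the whole table shows too. At an unadjusted p under 0.05, edgeR listed 4 of 42 members for lamin Y59C against wild-type (14.6% of all genes), 2 for the cec-4 mutant (4.88%) and 2 for the double mutant (17.4%). Without cec-4 mutant b the count for the cec-4 mutant was 3 (3.41%), and without cec-4 mutant a it was 10 (9.76%). The same rule listed 9 of 42 for the double mutant against lamin Y59C (13.2%), 1 for the double mutant against the cec-4 mutant (13.2%), 3 for the interaction (10.1%), 3 for the averaged transgene effect (17.2%) and 9 for the averaged effect of cec-4 loss (9.49%). DESeq2 called 3 members for lamin Y59C against wild-type (1.71% of the genes it tested), which were ndfl-4, nduo-2 and nduo-6, all lower (1.06% of genes were called lower). It called 1 for the double mutant against wild-type (3.9%), ndfl-4, and 2 for the averaged transgene effect (2.97%), ndfl-4 and nduo-2, and 0 in the other 5 comparisons. In those 5, DESeq2 called 0.0925% of genes for the cec-4 mutant, 1.72% between the double mutant and lamin Y59C, 2.05% between the double mutant and the cec-4 mutant, 0.488% for the interaction and 0.575% for averaged cec-4 loss.

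**Figure D1:**
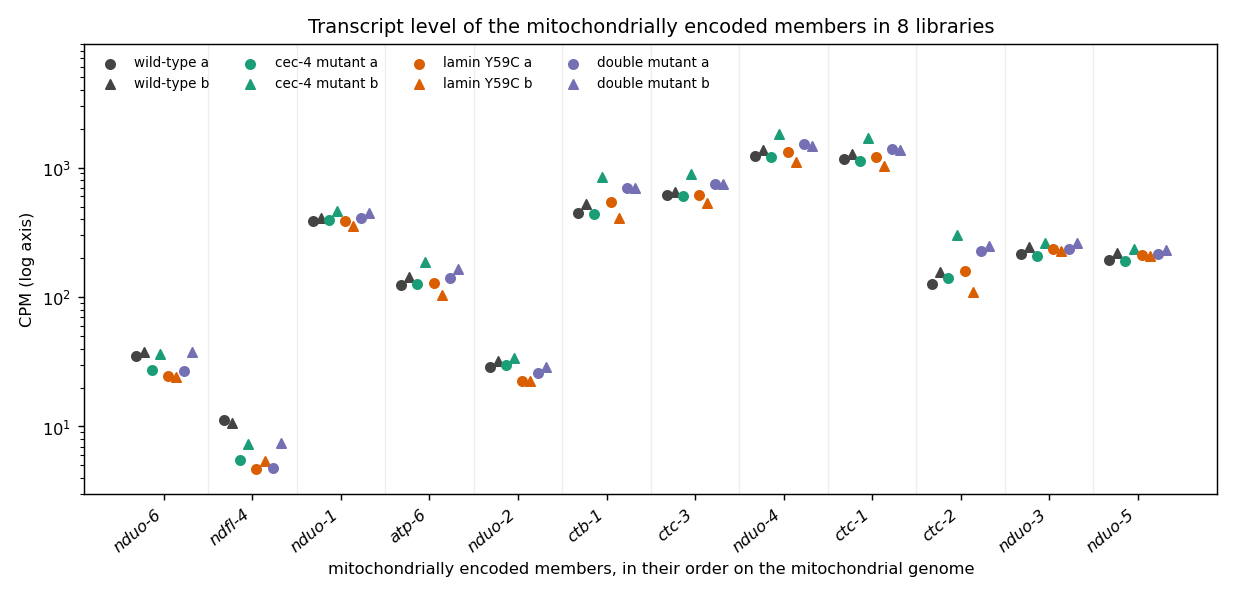
CPM (log axis) of the 12 mitochondrially encoded subunits, in their order on the mitochondrial genome, with a point for each of the 8 libraries (colour for genotype, circle for library a, triangle for library b). ndfl-4 is highest in both wild-type libraries (10.6 and 11.2 CPM), and ctc-2 is highest in cec-4 mutant b (299 CPM) and in both double mutant libraries (225 and 249 CPM).

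Complex I takes electrons from NADH and is the entry point of most electrons into the chain, and 7 of the 12 mitochondrial members (nduo-1 to nduo-6 and ndfl-4) form its membrane arm, which pumps protons. Of these 7, the 3 of lowest level per kb of exon, ndfl-4, nduo-2 and nduo-6, were lower in lamin Y59C than in wild-type at an unadjusted p under 0.05, with no overlap of the libraries. They did not pass the adjusted threshold in that comparison. The other 4 differed from wild-type by 0.12 or less on the log2 scale.

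ndfl-4 (WBGene00010958, MtDNA:549-783), the ND4L subunit, read 11.2 and 10.6 CPM in wild-type, 5.53 and 7.38 in the cec-4 mutant, 4.70 and 5.46 in lamin Y59C and 4.75 and 7.49 in the double mutant. Both wild-type libraries lay above all 6 mutant libraries. Against wild-type, the log2 difference was −1.098 ± 0.20 in lamin Y59C (95% interval −1.54 to −0.65, adjusted p = 0.0503, edgeR). It was −0.74 ± 0.19 in the cec-4 mutant (adjusted p = 0.897) and −0.83 ± 0.20 in the double mutant (adjusted p = 0.0623). The lamin Y59C difference passed the threshold in 7 of 15 alternative fits, with adjusted p-values from 0.000152 to 0.395, and the double mutant difference in 6 of 15, from 0.00589 to 0.291. Both passed when either cec-4 mutant library was left out of the fit, whose spread is shared by all groups (adjusted p = 0.0304 and 0.0291 for lamin Y59C, 0.0394 and 0.0369 for the double mutant). The double mutant difference rested on its own libraries too: it was −0.54 without double mutant a (adjusted p = 0.291) and −1.19 without double mutant b (0.0467). ndfl-4 rested on 149 to 596 counts per library, the fewest of the mitochondrial members. The double mutant and lamin Y59C overlapped for this gene, and their difference was 0.27 ± 0.21 (adjusted p = 0.652). Its interaction was 1.01 ± 0.29 (adjusted p = 0.310), and its levels in the double mutant overlapped those of each single mutant.

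nduo-2 (WBGene00010961, MtDNA:3389-4269), the ND2 subunit, read 28.6 and 32.1 CPM in wild-type, 30.1 and 33.9 in the cec-4 mutant, 22.6 and 22.4 in lamin Y59C and 25.9 and 28.7 in the double mutant. Lamin Y59C lay below every other library, and the double mutant lay between it and the libraries without the transgene, double mutant b reaching just above wild-type a. The log2 difference of lamin Y59C from wild-type was −0.44 ± 0.09 (95% interval −0.63 to −0.24, adjusted p = 0.0648). It ran from −0.51 to −0.35 when any library was left out. The difference of the double mutant from wild-type was −0.16 ± 0.09 (adjusted p = 0.375). Averaged over both cec-4 states the transgene libraries differed from the others by −0.33 ± 0.06 (95% interval −0.47 to −0.20, adjusted p = 0.0252), a level of 0.794 times the others. That call was lost without wild-type b (adjusted p = 0.0658), lamin Y59C a (0.0785), lamin Y59C b (0.0772), double mutant a (0.100) or double mutant b (0.0527), while the difference itself stayed between −0.37 and −0.29 when any library was left out. Each double mutant library lay above both lamin Y59C libraries, by 0.28 ± 0.09 (adjusted p = 0.204).

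nduo-6 (WBGene00010957, MtDNA:113-549), the ND6 subunit, read 35.3 and 37.3 CPM in wild-type, 27.2 and 36.1 in the cec-4 mutant, 24.7 and 24.0 in lamin Y59C and 26.8 and 37.7 in the double mutant. Lamin Y59C again held the lowest values, while each of the other 2 mutant genotypes had 1 library near wild-type and 1 near lamin Y59C. The difference of lamin Y59C from wild-type was −0.58 ± 0.15 on the log2 scale (95% interval −0.92 to −0.23, adjusted p = 0.145). nduo-6 and ndfl-4 are neighbours that share 1 base at their border on the annotated mitochondrial genome, and reads across that border cannot be assigned to one of them with certainty. nduo-2 lies further along, after nduo-1 and atp-6.

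nduo-1 (MtDNA:1763-2635), the ND1 subunit, read 387 and 411 CPM in wild-type, 390.4 and 464 in the cec-4 mutant, 384 and 350.5 in lamin Y59C and 411 and 446 in the double mutant. Lamin Y59C lay just below wild-type without overlap, by −0.12 ± 0.09 (adjusted p = 0.587), and the double mutant lay above lamin Y59C by 0.22 ± 0.09 (adjusted p = 0.310).

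nduo-4 (MtDNA:6506-7808), the ND4 subunit, read 1232 and 1369 CPM in wild-type, 1199 and 1824 in the cec-4 mutant, 1307 and 1104 in lamin Y59C and 1509 and 1477 in the double mutant. Library cec-4 mutant b was the highest and its partner among the lowest. The double mutant differed from wild-type by 0.20 ± 0.16 (adjusted p = 0.564) and from lamin Y59C by 0.31 ± 0.16 (adjusted p = 0.449).

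The steadiest mitochondrial members were nduo-3 and nduo-5, which adjoin at the end of the genome. nduo-3 (MtDNA:11356-11691), the ND3 subunit, read 216 and 243 CPM in wild-type, 208 and 262 in the cec-4 mutant, 233 and 227 in lamin Y59C and 236 and 259 in the double mutant. nduo-5 (MtDNA:11691-13272), the ND5 subunit, read 192 and 219 CPM in wild-type, 189 and 233 in the cec-4 mutant, 210.0 and 208 in lamin Y59C and 216 and 230.3 in the double mutant. For both, lamin Y59C lay inside the wild-type range, with log2 differences of 0.00 ± 0.10 and 0.02 ± 0.10 (95% intervals −0.23 to 0.23 and −0.19 to 0.24).

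Complex III passes electrons from ubiquinol to cytochrome c, and its 1 mitochondrial subunit is cytochrome b, the product of ctb-1 (MtDNA:4504-5621). ctb-1 read 445 and 521 CPM in wild-type, 436 and 844 in the cec-4 mutant, 545 and 410.4 in lamin Y59C and 694 and 699.6 in the double mutant. Both double mutant libraries lay above all wild-type and lamin Y59C libraries, and cec-4 mutant b lay higher still, while cec-4 mutant a lay just below wild-type. The double mutant differed from wild-type by 0.53 ± 0.24 on the log2 scale (adjusted p = 0.297) and from lamin Y59C by 0.54 ± 0.24 (adjusted p = 0.373).

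Complex IV, cytochrome c oxidase, hands the electrons to oxygen, and its catalytic core is the 3 mitochondrial subunits ctc-1, ctc-2 and ctc-3. ctc-2 (WBGene00010965, MtDNA:9649-10348), which carries the copper site that accepts electrons from cytochrome c, had the widest range of all 42 members. It read 126 and 155 CPM in wild-type, 141 and 299 in the cec-4 mutant, 159.9 and 109 in lamin Y59C and 225 and 249 in the double mutant. Cec-4 mutant b and both double mutant libraries stood above the other 5, and the cec-4 mutant libraries lay apart from each other by more than any pair of group means. The log2 difference of the double mutant was 0.75 ± 0.28 from wild-type (95% interval 0.12 to 1.38, adjusted p = 0.207) and 0.81 ± 0.29 from lamin Y59C (adjusted p = 0.250). Each passed the threshold in 3 of 15 alternative fits, with adjusted p-values from 0.00793 to 0.667 and from 0.0393 to 0.614. Of these, 2 left out a cec-4 mutant library. The cec-4 mutant differed from wild-type by 0.65 ± 0.28 (adjusted p = 0.897), and by −0.00552 without cec-4 mutant b.

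ctc-1 (MtDNA:7827-9428), the subunit that holds the oxygen-reducing centre, read 1154 and 1281 CPM in wild-type, 1129.7 and 1688 in the cec-4 mutant, 1214 and 1033 in lamin Y59C and 1396 and 1364 in the double mutant. ctc-3 (MtDNA:5678-6449) read 613 and 649 CPM in wild-type, 605 and 895 in the cec-4 mutant, 615 and 533 in lamin Y59C and 745 and 752 in the double mutant. In both genes the double mutant stood above wild-type and lamin Y59C without overlap and between the cec-4 mutant libraries. Against wild-type the double mutant differences were 0.18 ± 0.15 for ctc-1 (adjusted p = 0.590) and 0.25 ± 0.15 for ctc-3 (adjusted p = 0.417).

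Complex V, the ATP synthase, has 1 mitochondrial member here, atp-6 (MtDNA:2634-3235), which forms part of the proton channel. It read 124 and 142 CPM in wild-type, 127 and 187 in the cec-4 mutant, 128 and 103 in lamin Y59C and 141 and 164 in the double mutant. Wild-type overlapped every mutant genotype, and the difference of lamin Y59C was −0.20 ± 0.16 (adjusted p = 0.626). The double mutant lay above lamin Y59C by 0.40 ± 0.16 (adjusted p = 0.329).

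**Figure D2:**
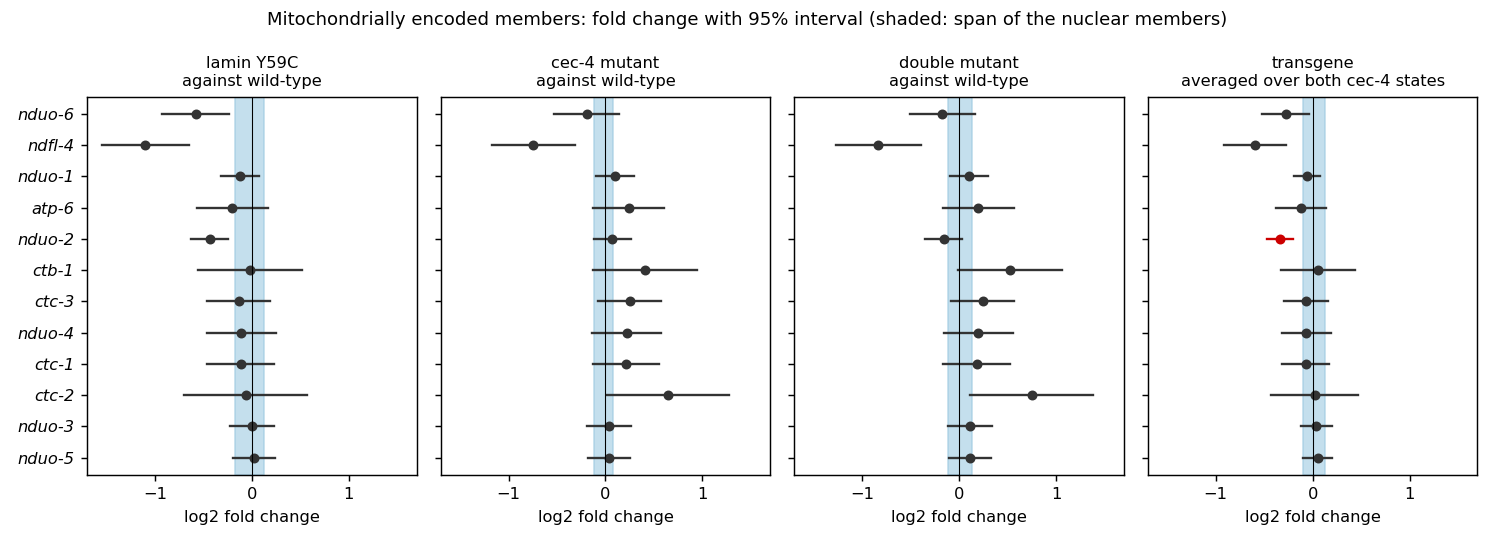
Log2 fold changes with 95% intervals for the 12 mitochondrial members in lamin Y59C, the cec-4 mutant and the double mutant, and for the transgene averaged over both cec-4 states in the last panel (red: adjusted p under 0.05; shaded: span of the 30 nuclear members' log2 differences). nduo-2 is the red point (−0.33), ndfl-4 lies below the span in each genotype (−1.098, −0.74 and −0.83) and ctc-2 above it in the cec-4 mutant and the double mutant (0.65 and 0.75).

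Read across the mitochondrial members, the double mutant stood above lamin Y59C without overlap in 11 of 12, the exception being ndfl-4, against 22.5% of all genes tested that were higher without overlap. Their median log2 difference in that comparison was 0.30, against 0.00 over all genes tested. It ran from 0.24 without double mutant b to 0.42 without lamin Y59C a when a compared library was left out. With all libraries, 7 of the 12 had an unadjusted p under 0.05, all higher. By that rule 5.96% of all genes were higher. Far fewer than 7 met the rule without lamin Y59C b or without double mutant b. None was called. The difference ran from 0.57 to 1.11 for ctc-2 and from 0.28 to 0.49 for ctc-3 when any library was left out. Against wild-type the double mutant was higher without overlap in 6 of 12, against 25.7% of all genes. These were ctb-1, ctc-1, ctc-2, ctc-3, nduo-1 and nduo-4. For nduo-1 the margin was narrow, with 411.07 CPM in double mutant a and 410.73 in wild-type b. The double mutant was lower without overlap in 1 (ndfl-4, against 24.8% of all genes). Lamin Y59C was lower than wild-type without overlap in 4 of 12 (ndfl-4, nduo-1, nduo-2 and nduo-6; 23.7%) and higher in 0 (25%). These 2 comparisons and the one between the mutants share libraries, so they are not separate evidence. Nor are the 12 genes, whose transcripts share precursors, so their counts cannot be read as separate observations against the shares of all genes. A single library moved most of them: lamin Y59C b was lowest for 9 of 12 and cec-4 mutant b highest for 10. When the effect of cec-4 loss was averaged over both lamin states, 8 of the 12 were higher at an unadjusted p under 0.05 (4.19% of all genes), and 0 were called. That count rests on cec-4 mutant b and on wild-type a: far fewer than 8 were higher by the same rule when either was left out. The median of the 12 was 0.21, and it was 0.09 without cec-4 mutant b and 0.17 without wild-type a. Without cec-4 mutant b, ctc-2 moved from 0.73 ± 0.20 to 0.40, ctb-1 from 0.48 ± 0.17 to 0.19 and ctc-3 from 0.32 ± 0.10 to 0.16. Without cec-4 mutant a instead, these 3 genes passed the threshold, at 0.95, 0.67 and 0.44 (adjusted p = 0.0174, 0.0239 and 0.0205).

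The nuclear members are described by complex. All 30 had 95% intervals inside 0.5 on the log2 scale in each of the 8 comparisons. Their medians were −0.05 in lamin Y59C, −0.03 in the cec-4 mutant and −0.003 in the double mutant, each against wild-type, where the medians over all genes tested were 0.004, 0.005 and 0.005.

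**Figure D3:**
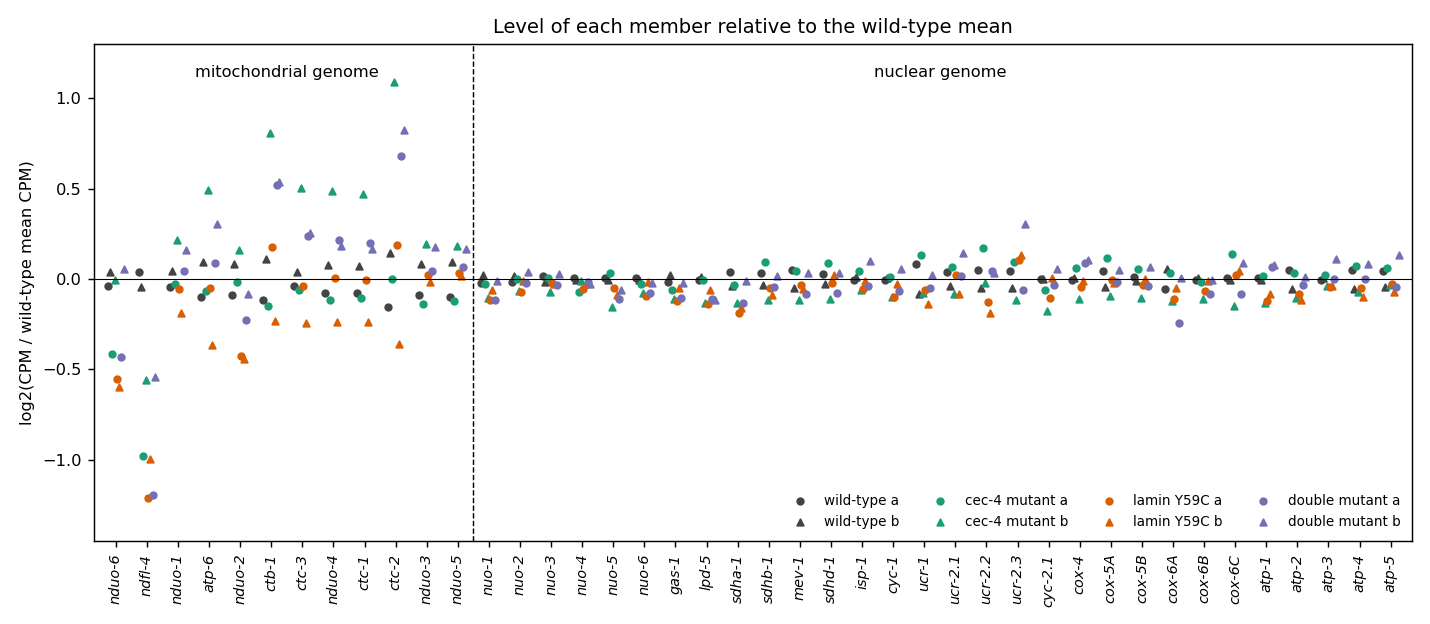
Log2 of CPM over the wild-type mean CPM for the 42 members along the horizontal axis, split by genome, with a point for each of the 8 libraries (colour for genotype, circle for library a, triangle for library b). The nuclear members stay near 0, and the mitochondrial members vary, with high values in cec-4 mutant b and low values of ndfl-4 in all 6 mutant libraries.

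The 8 nuclear members of complex I include the NADH-binding subunit nuo-1, the iron-sulfur subunit nuo-5 and gas-1, whose mutants are known for their sensitivity to volatile anaesthetics. Their log2 differences from wild-type ran from −0.10 to −0.02 in lamin Y59C, from −0.09 to −0.03 in the cec-4 mutant and from −0.11 to 0.01 in the double mutant. The member with the smallest p against wild-type was lpd-5 (I:4372255-4373018), the NDUFS4 subunit. It read 131 and 133 CPM in wild-type, 131 and 120.0 in the cec-4 mutant, 119.9 and 127 in lamin Y59C and 122 and 122 in the double mutant. The double mutant lay below wild-type by −0.11 ± 0.06 (adjusted p = 0.359).

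Complex II, succinate dehydrogenase, is a step of the citric acid cycle as well as of the chain, and its 4 members include mev-1, the cytochrome b subunit whose mutants are known for sensitivity to oxygen. sdha-1 (X:8542757-8546021), the flavoprotein that oxidises succinate, read 347 and 329 CPM in wild-type, 330.1 and 309 in the cec-4 mutant, 297 and 302 in lamin Y59C and 308 and 336 in the double mutant. Lamin Y59C held the lowest 2 libraries, at −0.17 ± 0.06 from wild-type (95% interval −0.32 to −0.03, adjusted p = 0.260). It was the 1 nuclear member under an unadjusted p of 0.05 in that comparison.

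In complex III the 6 nuclear members hold the Rieske iron-sulfur protein isp-1, cytochrome c1 (cyc-1) and the core proteins ucr-1, ucr-2.1, ucr-2.2 and ucr-2.3. ucr-2.2 (X:15173904-15178145) read 193 and 180.2 CPM in wild-type, 210.2 and 183 in the cec-4 mutant, 170.5 and 164 in lamin Y59C and 192 and 191 in the double mutant. Lamin Y59C lay below the other 6 libraries, by −0.16 ± 0.07 from wild-type (adjusted p = 0.346) and by 0.20 ± 0.07 under the double mutant (adjusted p = 0.267). A collagen gene on the other strand, col-41, lies within ucr-2.2 in the WBcel235 annotation, shares 0 exon bases with it and was itself called lower in lamin Y59C (−4.27, adjusted p = 0.00326). Whether reads were counted by strand is not given in the sources used here. col-41 held 400 counts over all libraries, against 5185 to 10152 counts per library for ucr-2.2. ucr-2.3 read 3.92 to 5.25 CPM.

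Cytochrome c, the mobile carrier between complexes III and IV, is represented by cyc-2.1 (IV:4747895-4749012). It read 1087 and 1087 CPM in wild-type, 1043 and 959 in the cec-4 mutant, 1009 and 1092 in lamin Y59C and 1061 and 1131 in the double mutant. The cec-4 mutant lay below wild-type by −0.12 ± 0.07 (adjusted p = 0.897), and the other 2 genotypes overlapped wild-type.

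The 6 nuclear members of complex IV surround the mitochondrial core subunits, and their log2 differences from wild-type ran from −0.11 to 0.09 over the 3 mutant genotypes. cox-4 (I:13658171-13659128) read 325 and 327 CPM in wild-type, 340.5 and 302 in the cec-4 mutant, 316 and 324 in lamin Y59C and 346 and 350.5 in the double mutant. The double mutant held its highest 2 libraries, at 0.09 ± 0.07 over wild-type (adjusted p = 0.489).

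Complex V has 5 nuclear members, among them the alpha and beta subunits atp-1 and atp-2. atp-1 (I:12652277-12654655) read 2685 and 2672 CPM in wild-type, 2712 and 2442 in the cec-4 mutant, 2466 and 2525 in lamin Y59C and 2806 and 2829.6 in the double mutant. Lamin Y59C lay just below wild-type and the double mutant above both, at −0.10 ± 0.07 and 0.07 ± 0.07 from wild-type (adjusted p = 0.556 and 0.643). Between the mutants the difference was 0.18 ± 0.07 (adjusted p = 0.320).

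Small shifts without overlap were also counted over the nuclear members. Lamin Y59C was below wild-type without overlap in 17 of 30 (23.7% of all genes tested) and above in 2 (25%), but by no more than 0.17 on the log2 scale in the lower direction. The double mutant was above lamin Y59C without overlap in 10 of 30 (22.5%) and below in 0 (21.9%). Against wild-type it was lower in 5 (24.8%) and higher in 2 (25.7%).

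The balance of the genomes was measured as the summed counts of each set. The 12 mitochondrial members took 0.454% and 0.501% of all counts in wild-type, 0.443% and 0.704% in the cec-4 mutant, 0.497% and 0.416% in lamin Y59C and 0.562% and 0.550% in the double mutant. The 30 nuclear members took 1.62% to 1.7% in every library. The log2 ratio of mitochondrial to nuclear sums was −1.91 and −1.72 in wild-type, −1.94 and −1.21 in the cec-4 mutant, −1.72 and −1.97 in lamin Y59C and −1.56 and −1.61 in the double mutant.

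Both double mutant libraries had a higher ratio than the wild-type and lamin Y59C libraries, and cec-4 mutant b had the highest of all. The double mutant mean exceeded wild-type by 0.23 and lamin Y59C by 0.26 on the log2 scale, without overlap of libraries. When a compared library was left out, the first ran from 0.13 (without wild-type a) to 0.32 (without wild-type b) and the second from 0.14 (without lamin Y59C b) to 0.38 (without lamin Y59C a). The pooled SD between libraries was 0.10 and 0.12 in these comparisons. Lamin Y59C and wild-type overlapped, with a difference of −0.03, as did the cec-4 mutant and wild-type, with a difference of 0.24 that was −0.13 without cec-4 mutant b. Between the double mutant and the cec-4 mutant the difference was −0.01, and 0.36 without cec-4 mutant b. With 2 libraries a group, an exact permutation test of a single ratio cannot reach 0.05, so none is given. The sum is weighted to abundant genes: with each member weighted equally, the double mutant exceeded wild-type by 0.11, since ndfl-4, nduo-2 and nduo-6 lay lower.

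**Figure D4:**
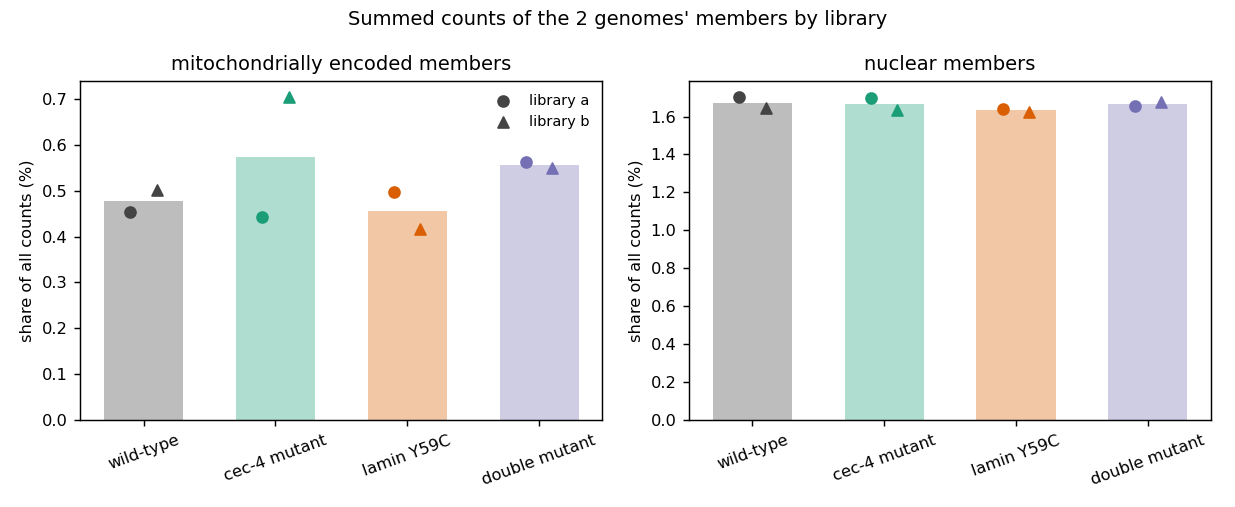
Share of all counts (%) in the 12 mitochondrial members (left) and the 30 nuclear members (right), by genotype, with libraries a and b as points and group means as bars. The nuclear share stays between 1.62% and 1.7%, and the mitochondrial share runs from 0.416% in lamin Y59C b to 0.704% in cec-4 mutant b.

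The mitochondrial members also differed more between the libraries of 1 genotype than the nuclear members did. The median absolute log2 difference between libraries a and b was 0.16 for the mitochondrial members in wild-type, against 0.04 for the nuclear members and 0.09 for all genes tested. It was 0.49, 0.14 and 0.12 in the cec-4 mutant, 0.21, 0.04 and 0.11 in lamin Y59C, and 0.13, 0.09 and 0.12 in the double mutant. In the cec-4 mutant all 12 mitochondrial members were higher in library b and 29 of 30 nuclear members were lower there, so the members of the 2 genomes moved apart in opposite directions. Library cec-4 mutant b held the highest of the 8 values for 10 of 12 mitochondrial members, and lamin Y59C b the lowest for 9 of 12. The ratio of the highest to the lowest library had a median of 1.64 over the mitochondrial members and of 1.14 over the nuclear members. Mitochondrial transcripts share precursors and are not independent of each other.

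**Figure D5:**
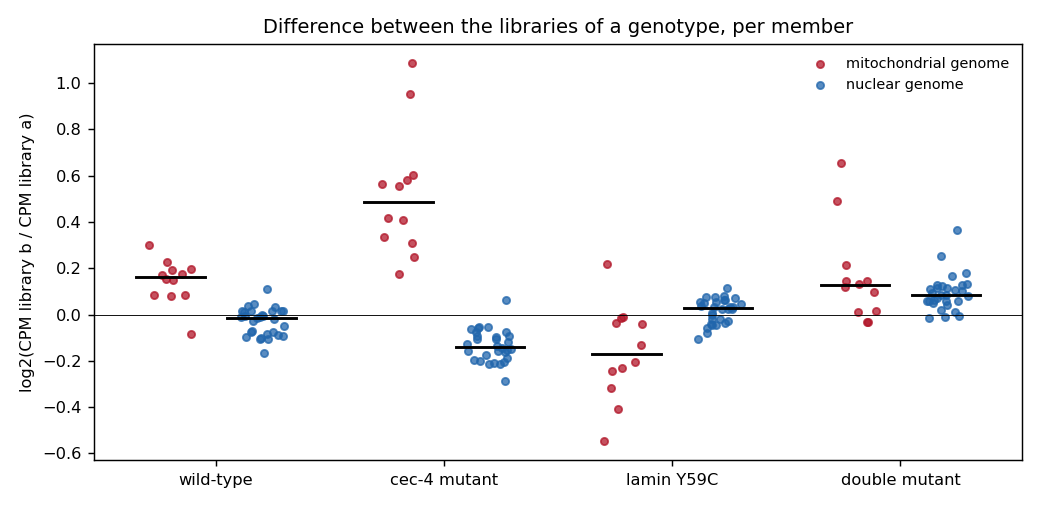
Log2 of library b over library a for each member, by genotype, with mitochondrial members in red, nuclear members in blue and medians as black lines. In the cec-4 mutant the mitochondrial median is 0.49 and the nuclear median −0.14.

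Within the mitochondrial sum, some members kept their share and others did not. nduo-4 held 25.8% to 27% of the mitochondrial counts in every library and ctc-1 23.9% to 25.3%. ctc-2 held 2.76% and 3.06% in wild-type, 3.14% and 4.42% in the cec-4 mutant, 3.30% and 2.65% in lamin Y59C and 4.00% and 4.35% in the double mutant. The share of ndfl-4 was 0.246% and 0.209% in wild-type and 0.0844% to 0.132% in the 6 mutant libraries. These shares do not depend on the level of the nuclear genes. nduo-2 held 0.627% and 0.634% in wild-type, 0.670% and 0.501% in the cec-4 mutant, 0.467% and 0.542% in lamin Y59C and 0.461% and 0.502% in the double mutant.

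Levels were compared between genes only per length, as CPM per kb of annotated exon averaged over the 8 libraries. On that scale cyc-2.1 (1928) and the ATP synthase subunits atp-2 (1781) and atp-1 (1301) led, and nduo-4 (1057) and ctc-3 (875) led the mitochondrial members. ndfl-4 (30.4) and nduo-2 (31.8) were the lowest mitochondrial members, with only ucr-2.3 (3.29) below them among all 42. Although they lie on one genome, the mitochondrial members thus spanned from 30.4 to 1057.

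Other genes of the pathway were read from fixed lists. Of 15 tested further subunits of the respiratory chain and ATP synthase, 12 assembly factors, 8 ubiquinone synthesis genes and 6 genes of mitochondrial DNA upkeep and transcription, 0 were called by edgeR or DESeq2 in any of the 8 comparisons, and at most 1 of each list had an unadjusted p under 0.05 in a comparison. The mitochondrial RNA polymerase rpom-1 read 77.0 and 80.4 CPM in wild-type and 93.0 and 87.1 in the double mutant, higher by 0.19 ± 0.06 (adjusted p = 0.106). Among 69 mitochondrial ribosomal proteins, 1 was called in the double mutant against wild-type, where 2.21% of all genes tested were called. This gene, mrpl-9, read 63.6 and 65.0 CPM in wild-type and 77.3 and 78.8 in the double mutant. It was higher by 0.28 ± 0.05 (adjusted p = 0.0257). It lost the call when any of the 4 compared libraries was left out, with adjusted p-values up to 0.200, and with a replicate block (0.0602). The other 68 were not called, and the list's median was 0.05, against 0.005 over all genes tested.

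Of 10 genes of the mitochondrial unfolded protein response, which induces chaperones when the organelle is stressed, 0 were called by either tool in any comparison. At most 6 had an unadjusted p under 0.05, all higher in the double mutant than in the cec-4 mutant. By that rule 5.98% of all genes were higher there, and the count is given only with cec-4 mutant b in the fit. A transcription factor of this response, dve-1, read 75.7 and 77.0 CPM in wild-type and 64.2 and 63.8 in lamin Y59C. The difference was −0.25 ± 0.06 (adjusted p = 0.105). Another gene of the list, lonp-1, was higher for the averaged transgene effect, by 0.13 ± 0.04 (adjusted p = 0.135). It read 103 and 102 CPM in wild-type and 96.8 and 105 in the cec-4 mutant. In lamin Y59C it read 112 and 110 CPM, and in the double mutant 110 and 112. Neither tool called any of 11 import and dynamics genes (at most 3 at an unadjusted p under 0.05) or 5 superoxide dismutases (at most 2). Over the 8 comparisons, 4.88% to 17.4% of all genes tested had an unadjusted p under 0.05. sod-3, a mitochondrial superoxide dismutase, read 1.92 and 1.86 CPM in wild-type and 4.88 and 2.75 in lamin Y59C, a difference of 1.02 ± 0.28 (adjusted p = 0.153) that was 0.54 without lamin Y59C a and 1.37 without lamin Y59C b. Of 4 ADP/ATP carriers only ant-1.1 passed the filter, at 4349 to 5173 CPM, and it was not called.

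Markers of tissues were set beside these values. The summed level of 8 body wall muscle markers was 11009 to 11425 CPM in wild-type, 10527 to 11158 CPM in the cec-4 mutant, 10518 to 11056 CPM in lamin Y59C and 10388 to 10789.7 CPM in the double mutant. None of the 8 was at 0 in any library, and edgeR called 1 of them, in the double mutant against wild-type (2.21% of all genes), where the troponin gene unc-27 fell (−0.27 ± 0.06, adjusted p = 0.0490). That call was lost with the compared libraries alone (adjusted p = 0.0548), with a replicate block (0.0964) and without either library of wild-type, lamin Y59C or the double mutant, with adjusted p-values up to 0.285. DESeq2 called 3 of the 8 lower there (3.9% of all genes it tested), namely unc-27 and the genes of the giant muscle proteins unc-22 and unc-89. It called unc-22 lower in lamin Y59C against wild-type (1.71% of the genes it tested). It also called unc-27 lower in the double mutant against lamin Y59C (1.72%). For the averaged transgene effect it called unc-22 and unc-89 lower (2.97%). Among the other marker lists edgeR called 0 genes. DESeq2 called 1, the cuticle collagen dpy-7, higher in the double mutant than in lamin Y59C (1.72% of the genes it tested). dpy-7 was near the floor, at 0.126 and 0.505 CPM in lamin Y59C and 0.552 and 2.59 in the double mutant. In wild-type it read 1.51 and 0.941 CPM. The edgeR adjusted p for that difference was 0.222, and 1 of 15 alternative fits called it. Summed intestinal markers (6) ran from 3565 to 4094 CPM, epidermal markers (6) from 513 to 559 CPM, neuronal markers (7) from 1337 to 1438 CPM, pharyngeal muscle markers (4) from 2653 to 2959.9 CPM and germ line markers (6, with 1 at 0 in a library) from 89.3 to 102 CPM. Their part in the differences of the mitochondrial members was not tested.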

How the data were processed

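The submitters' processing notes name Bowtie, the ce10 build and edgeR 3.24.0. Per the labels, a stranded total RNA protocol was followed and single ends of 50 bp were read. The deposited table held whole-number counts per gene and library, made by the authors. Which tool and annotation made them, and whether strand was used, is not stated, so genes that overlap are uncertain. The authors' deposited log2 table was not used.

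From the counts, filterByExpr of edgeR 4.0.16 (R 4.3.3) removed 6037 genes, which held 0.0278% of all counts, and the 8 libraries were scaled by TMM. Each gene was fitted over all 8 with a mean for each genotype, which left 4 residual degrees of freedom, and compared by two-sided quasi-likelihood F-tests. The Benjamini-Hochberg adjustment ran over 14355 genes within each of 8 comparisons. A gene was called at an adjusted p under 0.05, and adjusted p-values are from edgeR unless DESeq2 1.42.0 is named. Each SE was derived from the log2 difference and its F statistic, and intervals are at 95%. The fit was tested on simulated counts drawn from its own estimate of the spread. Those counts hold no library that stands apart as cec-4 mutant b does, so the test cannot speak to that case.

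Symbols were matched through WormBase gene IDs. The 12 mitochondrial members were matched by position between the WBcel235 annotation and a RefSeq gene table, and no coordinate was converted from ce10. Libraries of a genotype differed beyond counting noise (chi-square per degree of freedom 6.55 to 12.4).

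The members and all gene lists were chosen with earlier results of these data known. Values in every library are given for the 12 mitochondrial members, every called member and, in each nuclear complex, the member of smallest p against wild-type. The other nuclear members are given by range and count, and other lists by up to 4 called genes or up to 2 of smallest p. Alternatives were 3 other scalings, no filter, DESeq2, a replicate block, the compared libraries alone, leaving out each library and, for the ratio of the genomes, 3 other sums.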

Additional observations from a re-analysis of the deposited data

How the results depend on the processing

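Among the single-gene differences followed through the alternatives, 1 turned direction, that of ctc-2 between the cec-4 mutant and wild-type. It was −0.00552 without cec-4 mutant b and 1.09 without cec-4 mutant a. Not every member was followed in this way. In that comparison the median of the 12 mitochondrial members was 0.15, and −0.12 without cec-4 mutant b. Between the double mutant and the cec-4 mutant their median was 0.26 without cec-4 mutant b and −0.27 without cec-4 mutant a. The count of called members also changed with the processing. For lamin Y59C against wild-type the count was 2 with no filter, 3 with DESeq2, 3 with the compared libraries alone and 0 to 2 when a library was left out. For the double mutant against wild-type it was 1, 1, 3 and 0 to 3 under these settings, and against lamin Y59C it was 1 with the compared libraries alone and 0 to 2 when a library was left out. For the averaged transgene effect it was 2 with no filter, 2 with DESeq2 and 0 to 1 when a library was left out. For averaged cec-4 loss it was 0 to 3, the 3 being ctb-1, ctc-2 and ctc-3 without cec-4 mutant a. The members gained were ndfl-4, nduo-2, nduo-6, ctb-1, ctc-2 and ctc-3, all mitochondrial. The log2 ratio of the genomes in the double mutant against wild-type was 0.11 with every member weighted equally, and 0.13 to 0.32 when a library was left out. The letters a and b were not taken to pair the libraries: deviations of libraries with the same letter correlated between −0.208 and 0.170 over the pairs of genotypes. A fit with the letter as a replicate block called 1 member for the averaged transgene effect and 0 in the other comparisons, and the call of mrpl-9 was lost (adjusted p = 0.0602), as was that of unc-27 (0.0964). The 3 scalings of library size left every member count as it was. Over all genes the counts moved further. For lamin Y59C against wild-type they were 73 as reported, 159 with no filter, 234 with DESeq2, 124 with the compared libraries alone, 27 with the replicate block and 8 to 178 when a library was left out. For the double mutant against wild-type 317 became 146 with the block and 37 to 440 when a library was left out. For the double mutant against lamin Y59C 97 became 182 with no filter, 236 with DESeq2, 156 with the compared libraries alone, 28 with the block and 6 to 166 when a library was left out. Against the cec-4 mutant 111 became 212, 251, 138, 58 and 11 to 140. The interaction gave 5, then 34 with no filter and 74 with DESeq2, averaged cec-4 loss 17, then 42 and 83, and the averaged transgene effect 281, then 169 with the block and 99 to 348 when a library was left out. The cec-4 mutant gave 3, then 11 with DESeq2 and 3 to 9 when a library was left out. The cause of these changes was not tested. With 2 libraries a genotype, and a spread shared by the groups, ndfl-4 (149 to 596 counts per library) and the members that differ between cec-4 mutant libraries are the least secure.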
